A study of Arabidopsis thaliana with 24 samples.

Results

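The cytosolic ribosomal protein genes described here are 56 loci that encode 24 families of ribosomal proteins in Arabidopsis thaliana, 29 loci for the large (RPL) and 27 for the small (RPS) subunit. They were taken by locus ID from the 32678 loci of the count table, by a rule that itself used no measured value. The choice was made with earlier results of these data known. In the reference annotation 55 of the 56 carry a product that names a ribosomal protein. All 56 passed the filter on low counts in each fit, so no member was left out. The least abundant, RPS8B (AT5G59240), passed with 4 to 20 counts per library.

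Messenger RNA of seedlings was sequenced in 24 libraries, 3 for each of 8 groups. Plants were 7 or 24 days old, received brassinolide (BL) or no treatment, and were either cpd or a triple mutant, bri1-701 brl1 brl3. The cpd mutant lacks a cytochrome P450 of brassinosteroid (BR) synthesis, and the triple mutant carries lesions in the BR receptor gene BRI1 and its relatives BRL1 and BRL3. There was no wild type, so every group carries a lesion in BR synthesis or in BR perception, and the sources used here state neither the dose nor the duration of BL. The genotype label spells the first allele brl1-701, and the spelling of the design text was followed. The labels do not tie replicates to separate cultures or plants. The p-values therefore reflect variation among libraries, which may be technical.

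Libraries held 10180880 to 12531699 counts at 7 days and 17243503 to 20563151 at 24 days. Replicates at 7 days differed little more than counting error allows, with a chi-square per degree of freedom of 1.13 to 1.51, whereas at 24 days that value was 6.38 to 59.1. At 7 days without BL, CPD stood at 68.3 ± 3.5 CPM (counts scaled to a common library size with TMM factors, SD, n = 3) in cpd and at 434 ± 4.5 in the triple mutant, and BRI1 at 169 ± 5.4 and 48.3 ± 1.7. Where the lesions lie within these transcripts was not analysed. All 5 leaf markers were detected in every library, with summed levels of 4206 to 7248 CPM. Of 8 root markers, 2 or 3 had 0 counts in all libraries of a 7-day group, which allows up to 3 counts per library, although the samples are labelled seedlings. Each of the 8 was detected in at least 1 library of every 24-day group.

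Ribosomal proteins fold onto ribosomal RNA in the nucleolus to build the subunits that make proteins in the cytosol, and their mRNAs are among the most abundant of growing cells. In plants each protein is encoded by a small family of mostly similar paralogs, which are often expressed together but can differ by tissue. Brassinosteroids promote cell expansion and division through the receptor kinase BRI1, and the TOR and S6K kinases are known regulators of ribosome production. Plant ribosomal protein promoters are known for a telo-box and for site II elements, which are bound by TCP-family factors.

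The promoters of 5 members are shown because these genes carry the main results below: RPL10C, which moved against the others with BL, its paralog RPL10A, RPL24A and RPL24B, and RPS5A, which fell strongly with age. Each is the 250 bases upstream of the annotated transcript start in TAIR10.1 (RefSeq), written 5′ to 3′ on the gene's strand. Positions are chr1:24838840-24839089 (plus strand), chr1:4887864-4888113 (plus), chr2:15352014-15352263 (minus), chr3:19662026-19662275 (minus) and chr3:3779546-3779795 (minus). Capitals mark the telo-box AAACCCTA and site II TGGGCC or TGGGCT, searched on both strands, so a site II may also read GGCCCA or AGCCCA and a telo-box TAGGGTTT.
RPL10C: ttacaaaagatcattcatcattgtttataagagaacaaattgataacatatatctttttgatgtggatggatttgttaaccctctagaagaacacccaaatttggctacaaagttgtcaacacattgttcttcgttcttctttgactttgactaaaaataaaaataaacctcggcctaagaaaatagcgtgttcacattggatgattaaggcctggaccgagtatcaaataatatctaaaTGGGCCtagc
RPL10A: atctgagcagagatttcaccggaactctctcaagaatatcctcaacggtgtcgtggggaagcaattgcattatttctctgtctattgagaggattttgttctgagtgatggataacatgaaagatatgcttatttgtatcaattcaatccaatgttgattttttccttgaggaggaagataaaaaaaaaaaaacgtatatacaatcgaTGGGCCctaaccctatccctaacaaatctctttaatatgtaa
RPL24A: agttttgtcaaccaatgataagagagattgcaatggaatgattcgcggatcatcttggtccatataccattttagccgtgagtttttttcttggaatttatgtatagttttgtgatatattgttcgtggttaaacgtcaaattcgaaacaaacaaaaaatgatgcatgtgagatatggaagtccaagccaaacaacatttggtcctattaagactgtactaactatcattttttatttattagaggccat
RPL24B: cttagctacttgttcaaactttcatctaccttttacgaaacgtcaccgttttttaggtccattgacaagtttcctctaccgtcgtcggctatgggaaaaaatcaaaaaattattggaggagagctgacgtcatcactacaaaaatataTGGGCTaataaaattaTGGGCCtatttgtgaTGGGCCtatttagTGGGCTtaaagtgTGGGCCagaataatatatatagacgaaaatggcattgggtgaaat
RPS5A: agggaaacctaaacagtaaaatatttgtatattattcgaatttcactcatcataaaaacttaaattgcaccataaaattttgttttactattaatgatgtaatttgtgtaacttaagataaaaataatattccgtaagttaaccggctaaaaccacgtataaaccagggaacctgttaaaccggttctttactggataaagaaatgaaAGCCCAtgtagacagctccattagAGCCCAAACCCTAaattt
RPL24B held 5 site II matches and RPL24A held neither element. RPS5A held 1 telo-box and 2 site II matches, and its telo-box shares a base with the nearer of them. RPL10C and RPL10A each held 1 site II match.

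Across the family 37 of 56 promoters (66.1%) held site II, against 5264 of 27443 protein-coding promoters of the same length (19.2%). The telo-box was in 6 (10.7%), against 4.49% of all, and both elements were in 4 (7.14%), against 1.36%. Of the 158 other cytosolic ribosomal protein genes in a comparison list, 157 had a promoter, and 111 of these (70.7%) held site II. Of 26 nuclear genes for plastid ribosomal proteins, 34.6% did. The BR response element CGTGTG or CGTGCG, bound by the BZR1 factor, was in 4 member promoters (7.14%), against 6.71% of all. CACCG, searched without regard to the other motifs, was in 6 (10.7%), against 11.5%. With BL in cpd at 7 days 25 of the 37 members with site II were higher, as were 10 of the 19 without it, with median log2 changes of 0.12 and 0.08. In that comparison 27.7% of all genes tested were higher. The share among all genes with or without site II was not counted. A match is a string of letters and was not tested as a binding site.

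The members differed widely in level. On a scale of CPM per kb of coding sequence, averaged over the 24 libraries, RPL10C (AT1G66580) was highest at 697, followed by RPS24B (AT5G28060) at 677 and RPS8A (AT5G20290) at 664. RPS8B was lowest at 0.922, below RPSaB (AT3G04770) at 11 and RPL10B (AT1G26910) at 13.6. These 3 neighbours at the top overlapped, since RPL10C ranged from 366 to 1139 CPM per kb across libraries, RPS24B from 477 to 860 and RPS8A from 458 to 869. In all, 48 members had a mean of at least 100 CPM per kb.

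Together the 56 genes held 1.27 ± 0.0056% of all counts in untreated cpd at 7 days and 1.42 ± 0.0100% with BL (SD, n = 3). In the triple mutant of that age the share was 1.33 ± 0.0081% without and 1.34 ± 0.0129% with BL. At 24 days the shares were 0.817 ± 0.0073% in cpd, 0.877 ± 0.0199% in cpd with BL, 0.747 ± 0.0462% in the triple mutant and 0.80 ± 0.038% in the triple mutant with BL. The 7-day and 24-day libraries did not overlap, and cpd with BL was above untreated cpd in every library at both ages. In bulk seedling RNA, fewer cells of a type and less RNA per cell cannot be told apart.

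**Figure D1:**
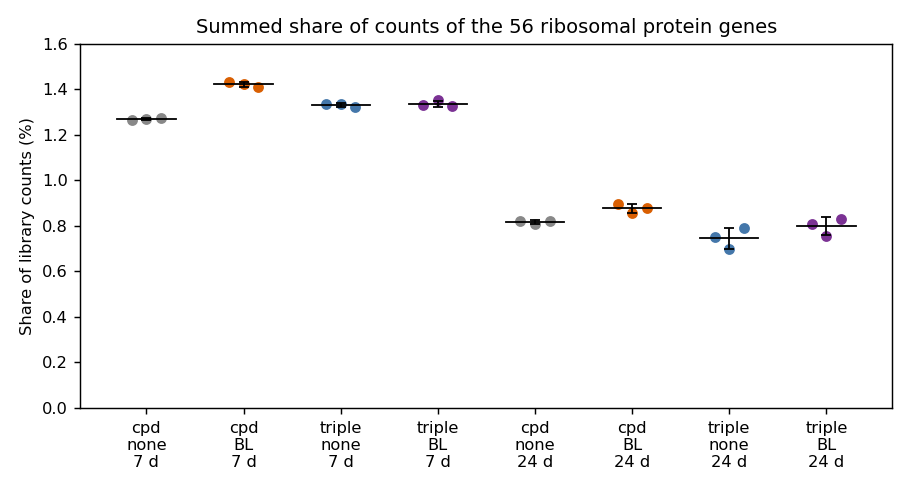
Summed share of library counts (%, vertical axis) of the 56 ribosomal protein genes, by group; points are libraries, horizontal lines the mean of 3 and bars the SD. All 7-day libraries lie between 1.26% and 1.43% and all 24-day libraries between 0.698% and 0.897%.

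The first comparison asked how BL changed these genes in the BR-deficient cpd mutant at 7 days. Of the 56 members, 35 rose and 3 fell (edgeR quasi-likelihood test, Benjamini-Hochberg adjusted p below 0.05 over 18378 genes). Among all genes tested, 27.7% rose and 29.5% fell. The rises were small, from 0.06 to 0.34 on the log2 scale with a median of 0.14. The median over all 56 members was 0.11, beside -0.00 over all genes. Large-subunit genes rose in 21 of 29 cases and small-subunit genes in 14 of 27, with 2 and 1 falling. RPS8B, with 4 to 6 counts in untreated and 8 to 13 in treated cpd, did not pass (0.92 ± 0.43, adjusted p = 0.063). In a joint fit of all 24 libraries, which carries the wider 24-day spread, 12 rose and 1 fell. The share of all genes called by the joint fit was not counted here or in the other contrasts within an age.

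In the large subunit the steepest rise was that of RPL24A (AT2G36620), a paralog of the protein that in Arabidopsis helps ribosomes reinitiate after upstream reading frames. Its levels were 65.9, 62.6 and 64.1 CPM in untreated cpd and 79.5, 78.2 and 87.4 with BL. The groups did not overlap, and the log2 change was 0.34 ± 0.05 (SE, adjusted p = 2.9e-09). Its paralog RPL24B (AT3G53020, the gene SHORT VALVE1) rose by 0.19 ± 0.03, from 167–176 to 185–202 CPM. RPL23aB (AT3G55280), of a family at the exit of the nascent peptide tunnel, went from 52.0, 51.9 and 49.1 CPM to 65.5, 62.8 and 60.7. That is a log2 change of 0.30 ± 0.05, with no overlap. RPL8A (AT2G18020), whose protein lies at the peptidyl transferase centre, went from 301, 312 and 305 CPM to 366, 367 and 368. Its change was 0.26 ± 0.03 (adjusted p = 3.1e-13), and the groups stood clear of each other.

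In the small subunit RPS5B (AT2G37270) rose most, by 0.33 ± 0.04 (adjusted p = 3.1e-12). It went from 120, 116 and 119 CPM to 154, 146 and 145, with every treated library above every untreated one. RPSaA (AT1G72370), the plant relative of the laminin receptor precursor of animals, rose by 0.28 ± 0.03, from 252, 259 and 258 CPM to 319, 310 and 303. RPS4D (AT5G58420) rose by 0.28 ± 0.03, from 124, 126 and 127 CPM to 159, 149 and 147. The groups did not overlap in either gene. The paralog RPS5A (AT3G11940, MINUTE-LIKE1), known for its expression in dividing cells, stood at 317, 317 and 324 CPM without and 334, 314 and 321 with BL. These overlap, and RPS5A did not pass the test.

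**Figure D2:**
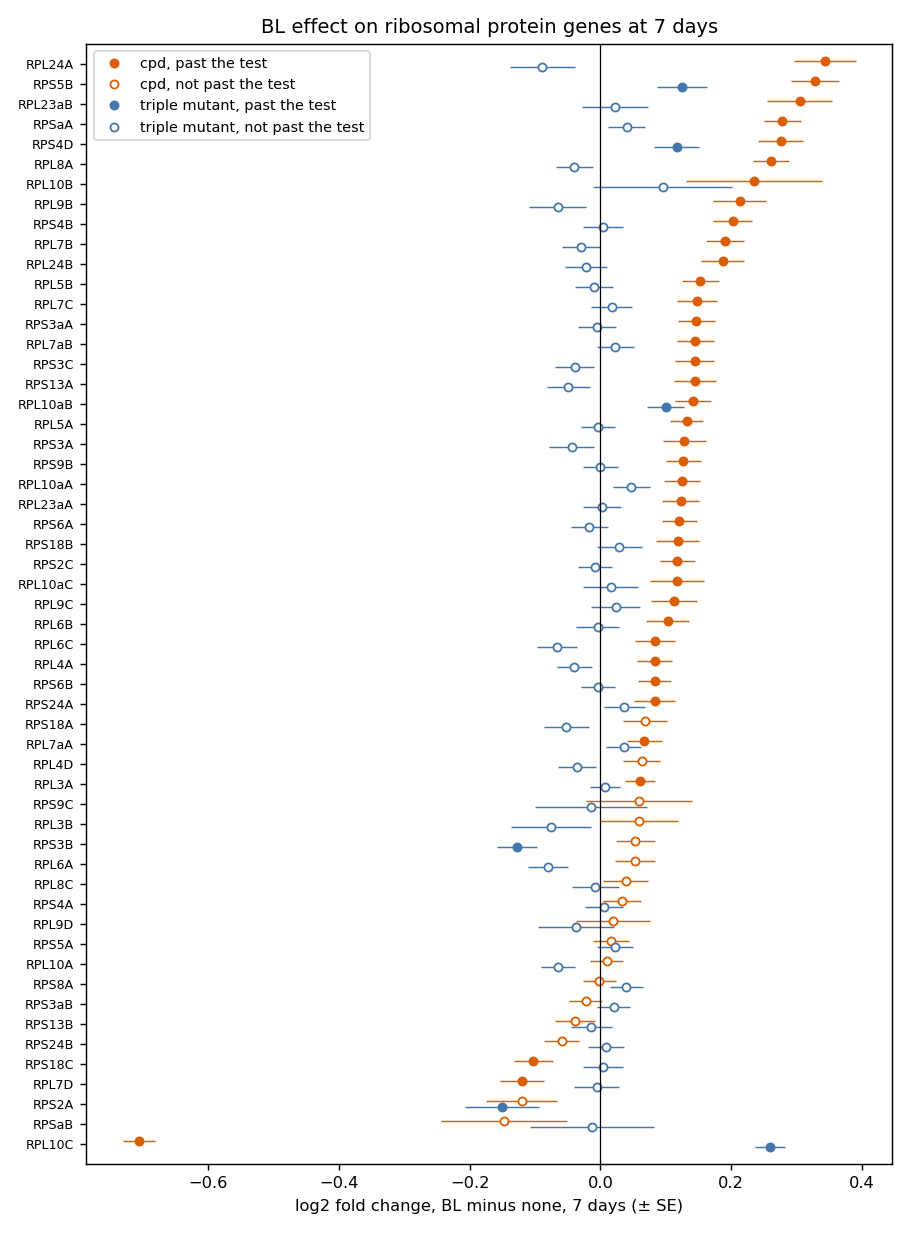
Log2 fold change with BL at 7 days (horizontal axis, ± SE) for 55 members in cpd (orange) and in the triple mutant (blue), ordered by the change in cpd; filled points passed the test. In cpd most points lie right of 0 and RPL10C lies far left at -0.71, while in the triple mutant most lie near 0 and RPL10C lies right at 0.26; RPS8B is left out for its low counts.

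RPL10C went the other way. This gene, also named SENESCENCE-ASSOCIATED GENE 24, lies at chr1:24839090-24840806 on the plus strand and encodes a protein that joins the large subunit late in its assembly. Its levels were 668, 654 and 659 CPM in untreated cpd at 7 days and 407, 398 and 410 with BL. The treated libraries lay far below the untreated ones, a fall by 0.71 ± 0.02 on the log2 scale (adjusted p = 3.8e-38). Its paralog RPL10A (AT1G14320), known as a partner of the antiviral receptor kinase NIK1, stood at 402, 402 and 399 CPM and at 415, 401 and 395 with BL, which overlap. RPL10B rose by 0.23 ± 0.10 from 9.94–12.4 to 11.7–14.8 CPM, with overlap. That call was lost without untreated library 2 (adjusted p = 0.0918) or 3 (0.242), or without treated library 1 (0.0821) or 3 (0.268). RPL10C supplied 61.5% of the summed CPM per kb of coding sequence of its family without BL and 49.2% with BL. The coding sequences of RPL10A and RPL10C are 88.2% identical, and their longest identical stretch is 98 bases.

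**Figure D3:**
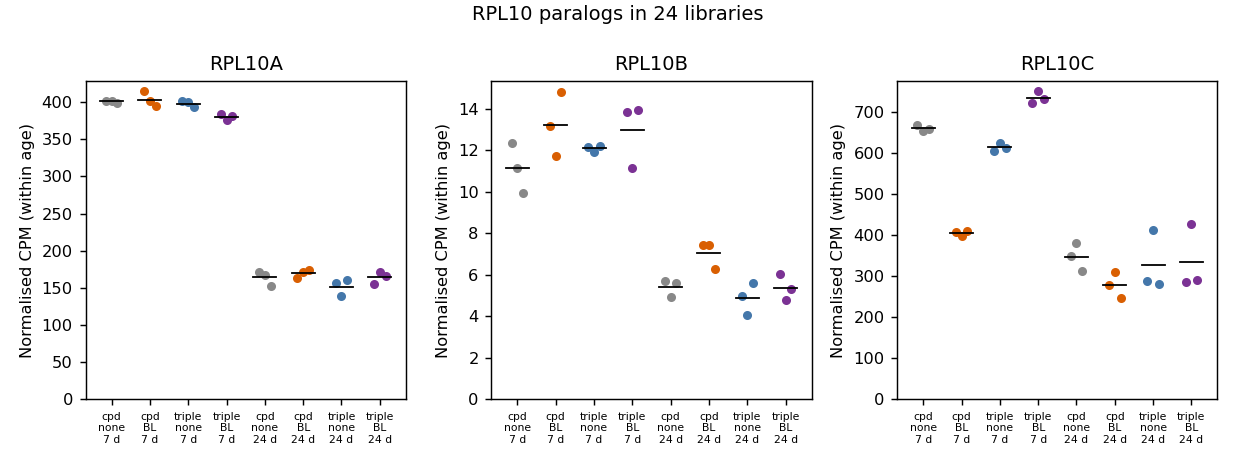
Normalised CPM (vertical axes, normalised within each age) of the RPL10 paralogs in each of the 24 libraries, by group; points are libraries and lines the mean of 3. RPL10C drops from 654–668 to 398–410 CPM with BL in cpd at 7 days and stands at 722–750 in the triple mutant with BL, while RPL10A stays at 377–415 CPM in all 7-day groups.

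Members also passed in opposite directions in the RPL7 and RPS18 families, so that 3 of 24 families were split in this comparison. RPL7B (AT2G01250) rose by 0.19 ± 0.03 and RPL7C (AT2G44120) by 0.15 ± 0.03, while RPL7D (AT3G13580) fell by 0.12 ± 0.03, from 177–193 to 164–175 CPM without overlap. RPS18B (AT1G34030) rose by 0.12 ± 0.03, from 131–138 to 144–148 CPM. RPS18C (AT4G09800) fell by 0.10 ± 0.03, from 243–253 to 229–235 CPM. RPS18A (AT1G22780, POINTED FIRST LEAF 1) did not pass at 0.07 ± 0.03. In 6 families every member rose, and 23 of 24 families had at least 1 member that rose.

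Other parts of the translation machinery, in lists chosen with earlier results of these data known, are given as counts. Of 146 other cytosolic ribosomal protein genes tested, 66 rose and 12 fell, with a median of 0.08. All 26 plastid ribosomal protein genes rose, with a median of 0.30. Of 24 ribosome biogenesis genes, 14 rose and 1 fell, among them FIB2 at 0.59 ± 0.07, CBF5 at 0.35 ± 0.04 and NOP56 at 0.33 ± 0.04, which encode nucleolar proteins of rRNA modification. Of 10 translation factors 4 rose and 1 fell. Of 7 growth-control genes 3 fell, including the kinase genes S6K2 (fell by 0.77 ± 0.07) and S6K1 (fell by 0.11 ± 0.04).

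Cell type markers moved with this comparison. The summed level of 8 markers of dividing cells was 21.8 to 23.0 CPM in untreated cpd and 41.6 to 43.5 with BL, and 4 of the 8 rose, including PCNA1 (2.00 ± 0.23 log2), MCM2 (1.76 ± 0.17) and MCM5 (1.51 ± 0.13). Most of the gain in the sum lay in the means of MCM5 (4.02 to 11.5 CPM), MCM2 (2.72 to 9.12) and PCNA1 (1.17 to 4.75). KNOLLE went from 4.59 to 6.71 CPM, CDKB2;1 from 4.07 to 4.66, CDKB1;1 from 1.44 to 1.75 and CYCB1;1 from 0.97 to 1.17. STM was lower with BL, at 3.14 against 3.54 CPM. The 5 leaf markers summed to 4206–4268 CPM without and 5819–5920 with BL, and all 5 rose. The 8 root markers summed to 143–157 CPM without and 97.6–103 with BL, and 3 of them, TIP2;3, COBL9 and IRT1, had 0 counts in both groups. Most of that sum was PYK10, with a mean of 118 CPM without and 61.9 with BL. SCR went the other way, from 32.1 to 36.9 CPM, and the remaining markers had means of at most 1.66 CPM. The part of these markers in the ribosomal protein changes was not tested.

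In the triple mutant at 7 days BL changed few members. Of 56, 4 rose and 2 fell, against 11.4% of all genes that rose and 11% that fell, and the median was -0.00, as over all genes. RPL10C was 604, 625 and 613 CPM without and 722, 750 and 731 with BL, so here it rose, by 0.26 ± 0.02 (adjusted p = 1.1e-14). RPS4D rose by 0.12 ± 0.03, RPS5B by 0.12 ± 0.04 and RPL10aB (AT2G27530, PIGGYBACK1) by 0.10 ± 0.03. RPS3B (AT3G53870) fell by 0.13 ± 0.03, from 224–236 to 202–217 CPM. RPS2A (AT1G58380) fell by 0.15 ± 0.06, and this call was lost when any of the 6 libraries was left out (adjusted p up to 0.149). RPS4D was lost without untreated library 3 (0.078) or treated library 1 (0.0511). The count of rises was 2 without either of these libraries, and that of falls was 1 without untreated library 2 or 3 or treated library 1 or 3. The joint fit of 24 libraries called 0 in either direction.

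The difference between the BL effects of the genotypes was tested directly. At 7 days the BL effect was lower in the triple mutant than in cpd for 29 members and higher for 2, while 18.7% of all genes were lower and 22.3% higher. The median difference was -0.12, beside 0.01 over all genes. The joint fit called 3 lower and 1 higher. RPL10C differed by 0.97 ± 0.03 (adjusted p = 4.4e-37), and RPL24A by -0.43 ± 0.07 (adjusted p = 2.1e-07). Without BL the triple mutant libraries held 70.7, 68.6 and 72.7 CPM of RPL24A, and with BL 68.4, 70.2 and 60.7, which overlap. The markers of dividing cells summed to 19.97–22.4 and 23.9–26.3 CPM there, and 0 of 8 passed with BL. RPL8A (-0.30 ± 0.04), RPL23aB (-0.28 ± 0.07), RPL9B (AT1G33120, -0.28 ± 0.06), RPSaA (-0.24 ± 0.04) and RPL7B (-0.22 ± 0.04) followed. The second higher member, RPS18C at 0.11 ± 0.04, lost its call without untreated cpd library 2 (adjusted p = 0.0874), cpd library 1 with BL (0.0563) or triple mutant library 2 with BL (0.0626), among 7 libraries in all, with adjusted p up to 0.159.

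Without BL at 7 days the triple mutant stood slightly above cpd. Of the members 23 were higher and 1 was lower, against 12.9% and 15% of all genes. The median was 0.07, beside 0.00 over all genes, and the called rises ran from 0.07 to 0.18. RPL24B differed most, by 0.18 ± 0.03, with 176, 167 and 168 CPM in cpd and 186, 198 and 194 in the triple mutant. RPS3C (AT5G35530), of the protein at the mRNA entry channel, followed at 0.17 ± 0.03, from 199–208 to 229–234 CPM, and RPS4D at 0.16 ± 0.04. These did not overlap. RPL10aC (AT5G22440), of the protein at the L1 stalk, was higher by 0.15 ± 0.04. RPL24A (0.14 ± 0.05) and RPL23aB (0.14 ± 0.05) each lost their call in 4 of 6 cases when a library was left out, with adjusted p up to 0.121 and 0.144. RPL10C was the member that was lower, by 0.11 ± 0.02. The count of higher members was 14 without triple mutant library 1, 15 with DESeq2 and 0 in the joint fit of 24 libraries, which called 0 lower as well. Without cpd library 1 the count of lower members was 2. Among the 146 other cytosolic genes 43 were higher and 1 was lower, and 24 of the 26 plastid genes were higher. Leaf markers summed to 4206–4268 CPM in cpd and 4556–4876 in the triple mutant, and 4 of 5 were higher. The comparisons of BL and of genotype share the untreated cpd libraries, and 20 members passed as higher in both.

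With BL at 7 days the order was turned: 21 members were lower and 6 higher in the triple mutant than in cpd, with 25.9% of all genes lower and 27.5% higher, and a median of -0.03. RPL24A was lower by 0.30 ± 0.05, at 60.7–70.2 CPM against 78.2–87.4. RPL9B was lower by 0.28 ± 0.04 and RPL8A by 0.21 ± 0.03. RPL10C was higher by 0.86 ± 0.02, at 722–750 CPM against 398–410, and RPL7D by 0.20 ± 0.03. The joint fit gave 4 lower and 2 higher. Markers of dividing cells summed to 23.9–26.3 CPM against 41.6–43.5 in cpd, root markers to 150–162 against 97.6–103, and leaf markers to 5368–5627 against 5819–5920. All these lists were mixed. Among markers of dividing cells MCM5 (4.55 against 11.5 CPM), MCM2 (2.58 against 9.12) and PCNA1 (1.49 against 4.75) were far lower in the triple mutant. KNOLLE and CYCB1;1 were lower too, but STM (3.48 against 3.14), CDKB1;1 (1.86 against 1.75) and CDKB2;1 (4.68 against 4.66) were slightly higher. Among root markers PYK10 had a mean of 126 CPM against 61.9 in cpd, but SCR had 27.8 against 36.9. Among leaf markers PSAF (689 against 573 CPM) and LHCB3 (321 against 314) were higher in the triple mutant, and the others were lower. The part of these markers in the differences was not tested.

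At 24 days, where the libraries spread more, fewer members passed. With BL in cpd 3 members rose and 0 fell, against 4.54% and 5.18% of 19731 genes, and 17 of the 56, beside 4810 of all genes, had an unadjusted p below 0.05. The joint fit of 24 libraries called 16 higher, with no share over all genes counted beside it. Its common spread between replicates was 10.9%, below the 15.0% of the 24-day fit. This holds for its counts in every 24-day contrast. The median was 0.13, beside -0.00 over all genes, and 45 of 56 changes were positive. RPSaA went from 156, 146 and 171 CPM to 213, 207 and 238, a rise of 0.48 ± 0.11 (adjusted p = 0.017). RPL3B (AT1G61580), a minor paralog of a protein at the peptidyl transferase centre, went from 17.1, 19.6 and 16.6 CPM to 24.0, 24.2 and 22.0, a rise of 0.40 ± 0.09 (adjusted p = 0.013). RPL24A went from 76.7, 74.9 and 75.0 CPM to 99.7, 90.5 and 94.1, a rise of 0.33 ± 0.08 (adjusted p = 0.026). In all 3 genes every treated library was above every untreated one. Markers of dividing cells summed to 48.1–53.4 CPM without and 57.8–65.5 with BL, and 0 of 8 passed.

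These calls hang on single libraries. Without untreated cpd library 1 the count was 0, and it was 1 without untreated library 2 or treated library 1. RPSaA was lost without untreated library 1 (adjusted p = 0.0644) or 2 (0.0803) or treated library 3 (0.0584). RPL3B was lost without untreated library 1 (0.0603) or treated library 1 (0.0556) or 2 (0.0546). RPL24A was kept only when treated library 2 was left out (0.0481), and reached 0.105 without treated library 1. When replicate 3 was left out of every 24-day group, a choice made after seeing the data, the count was 0. In that fit 2.28% of all genes were higher and 3.13% lower.

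Libraries of the same number deviated together at 24 days. With the replicate number as a block, 8 members rose and 1 fell, beside 7.48% and 7.98% of all genes. RPS4D (0.25 ± 0.06), RPL9B (0.26 ± 0.07), RPS5B (0.26 ± 0.08), RPS3aA (AT3G04840, 0.24 ± 0.07) and RPS9C (AT5G39850, 0.43 ± 0.13) were added to the rises. The fall was that of RPL10C, by 0.32 ± 0.09 (adjusted p = 0.037). RPL10C stood at 349, 380 and 312 CPM without and 277, 310 and 246 with BL. In the fit without the block its change was -0.32 ± 0.18 (adjusted p = 0.31).

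**Figure D4:**
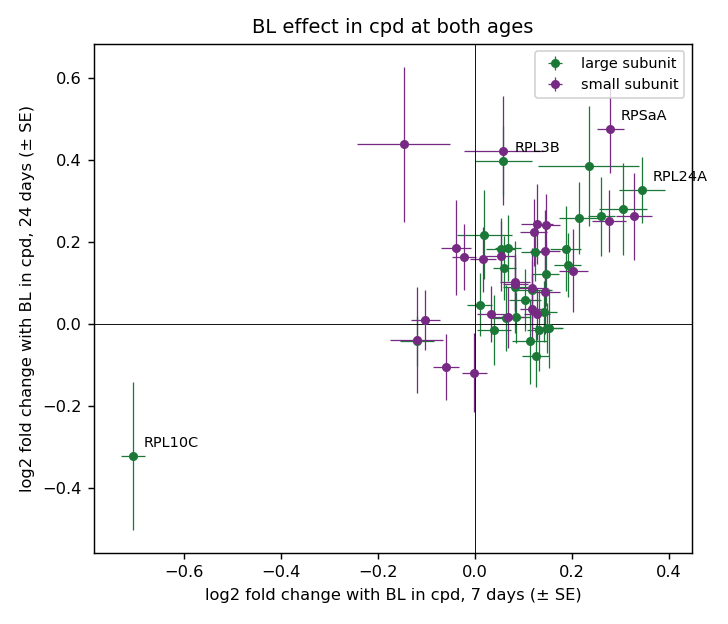
Log2 fold change with BL in cpd at 7 days (horizontal axis) and at 24 days (vertical axis), ± SE, for 55 members (RPS8B is left out for its low counts), by subunit. Most points lie above 0 on both axes and RPL10C lies below 0 on both, at -0.71 and -0.32.

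The BL effects in cpd at both ages come from separate libraries. Of the 35 members that rose at 7 days, 30 were positive at 24 days and 2 passed there, and 41 of 56 were positive at both ages. The same counts were not made over all genes, so they have no baseline here. Across members Pearson's r was 0.45 (n = 56) and Spearman's rho 0.39, and r was 0.29 without RPL10C, 0.53 without the scarce RPS8B and 0.38 without both, a description over genes that are not independent and share their libraries. A direct test of the BL effect at 24 minus 7 days called 1 member higher and 0 lower, against 5.51% and 4.16% of 19935 genes, with 6 members and 4708 genes at an unadjusted p below 0.05. The member was RPL3B at 0.34 ± 0.10 (adjusted p = 0.032), and its call was lost in 9 of 12 cases when a library was left out, with adjusted p up to 0.0856. Of the other lists at 24 days, 5 of 147 other cytosolic genes, 3 of 24 biogenesis genes (NOP56 at 0.50 ± 0.09) and 5 of 10 translation factors (EF1A_A4 at 0.38 ± 0.07) rose.

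The other contrasts at 24 days gave few calls. With BL in the triple mutant 0 members passed, as did 0% of all genes in either direction, with 4 members and 773 genes at an unadjusted p below 0.05 and 0 members called by DESeq2. The median was 0.06, beside -0.00. Without BL the triple mutant differed from cpd for 0 members, against 0.791% of genes higher and 0.253% lower, with 12 members and 3809 genes at an unadjusted p below 0.05, 2 members called lower by DESeq2 and a median of -0.06. The joint fit called 1 higher and 13 lower. With the block, RPL7C was lower by 0.27 ± 0.06 (adjusted p = 0.028), beside 5.03% of genes higher and 2.18% lower. Leaving out replicate 3 of untreated cpd, or that of the untreated triple mutant, also gave 1 lower member.

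With BL the triple mutant at 24 days was lower than cpd for 1 member and higher for 0, against 5.48% and 5.6% of genes, and the median was -0.13. The member was RPL24A, at 77.5, 62.5 and 74.6 CPM against 99.7, 90.5 and 94.1 in cpd, lower by 0.41 ± 0.08 (adjusted p = 0.0083). With the block 7 members were lower, beside 8.89% of all genes. They were RPL24A, RPL8A (-0.29 ± 0.08), RPL9B (-0.25 ± 0.07), RPL9D (AT4G10450, -0.34 ± 0.11), RPSaA (-0.29 ± 0.08), RPS3B (-0.28 ± 0.07) and RPS3aA (-0.23 ± 0.07). Without replicate 3 of cpd with BL the count without the block was 6, and in the joint fit it was 20. Without replicate 3 of every 24-day group it was 1, RPL9D at -0.44 ± 0.10, and RPL24A did not pass (-0.43 ± 0.11, adjusted p = 0.059). In that fit 3.12% of all genes were lower and 4.53% higher. Markers of dividing cells summed to 36.2–49.98 CPM against 57.8–65.5 in cpd. The difference between the BL effects of the genotypes passed for 0 members, against 1.59% of genes higher and 1.16% lower, with 4 members and 3304 genes at an unadjusted p below 0.05, and with 1 member called lower by DESeq2 and 3 by the joint fit. Its lowest member estimates with more than trace counts were those of RPS9C (-0.52 ± 0.19), RPSaA (-0.45 ± 0.15) and RPL24A (-0.44 ± 0.11). With the block RPSaA (adjusted p = 0.038) and RPL24A (0.037) were lower, beside 2.78% of genes lower and 3.33% higher. Same-numbered libraries correlated by as little as 0.083 in this contrast.

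Age gave by far the largest differences, although age and anything else that differed between the 7-day and 24-day libraries cannot be told apart. In untreated cpd 52 members fell and 1 rose from 7 to 24 days, against 34.9% of genes in each direction, with a median of -0.75 beside 0.01 over all genes. In the untreated triple mutant 54 fell and 0 rose, against 34.5% and 34.9%, with a median of -0.85 beside 0.02. In both genotypes 52 fell. Across members the age changes of the genotypes, from separate libraries, had a Pearson's r of 0.97 and a Spearman's rho of 0.96 (n = 56, across genes, which share depth and library preparation).

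The falls were unequal. RPS5A went from 321, 321 and 328 CPM (here normalised over all 24 libraries) in cpd at 7 days to 76.9, 74.6 and 77.5 at 24 days, a fall by 2.08 ± 0.06. RPS9B (AT5G15200) went from 393, 397 and 398 CPM to 106, 107 and 106, a fall by 1.89 ± 0.05. RPL9C (AT1G33140, PIGGYBACK2, which with PIGGYBACK1 affects leaf polarity) went from 113, 122 and 120 CPM to 30.9, 25.1 and 25.1, a fall by 2.13 ± 0.08. Each 24-day library was far below each 7-day library. RPSaB (1.61 ± 0.15), RPS9C (1.6 ± 0.11) and RPS5B (1.55 ± 0.09) completed the steepest falls in cpd. In the triple mutant RPL9C fell by 2.29 ± 0.08, RPS9B by 2.19 ± 0.05, RPS5A by 2.1 ± 0.06, RPS5B by 1.62 ± 0.09, RPL4D (AT5G02870) by 1.6 ± 0.06 and RPL9B by 1.55 ± 0.07.

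At the other end RPL24A rose in cpd by 0.20 ± 0.07 (adjusted p = 0.017), from 66.8, 63.5 and 65.0 to 76.2, 73.5 and 74.8 CPM. The call was lost without 7-day library 2 (adjusted p = 0.0547). In the triple mutant its change of 0.09 ± 0.07 did not pass. RPL5B (AT5G39740), whose protein binds the smallest rRNA of the large subunit, did not pass in cpd (0.04 ± 0.07, with 305, 322 and 339 CPM at 7 and 381, 330 and 285 at 24 days, which overlap). It fell by 0.28 ± 0.07 in the triple mutant. RPS3A (AT2G31610) did not pass in cpd either (-0.00 ± 0.07) and fell by 0.27 ± 0.07 in the triple mutant. Without replicate 3 of every 24-day group 2 members rose in cpd.

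**Figure D5:**
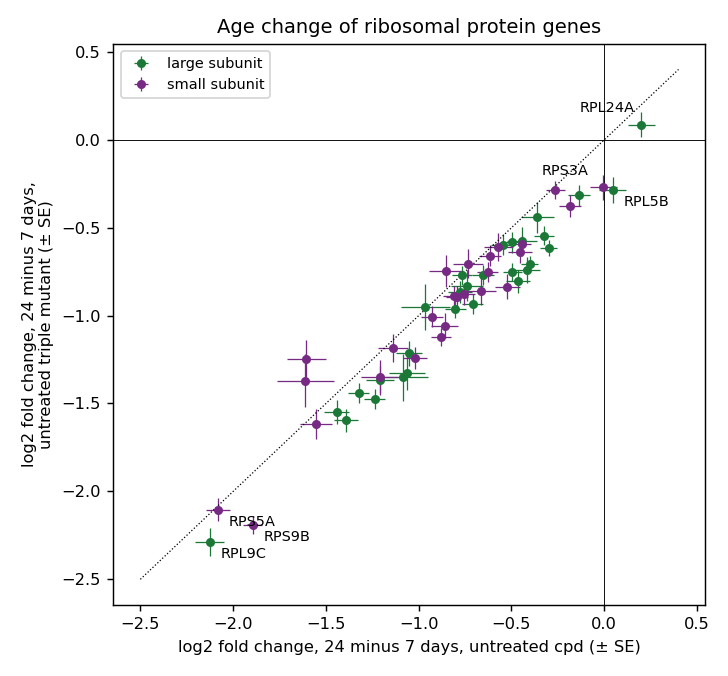
Log2 fold change from 7 to 24 days in untreated cpd (horizontal axis) and in the untreated triple mutant (vertical axis), ± SE, for 55 members, by subunit; the dotted line marks equal change, and RPS8B is left out for its low counts. Nearly all points lie below 0 on both axes, from RPL9C at -2.13 and -2.29 to RPL24A at 0.20 and 0.09.

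Genes of the other lists moved beside them. Of 147 other cytosolic ribosomal protein genes 127 fell and 5 rose in cpd (median -0.83), and 136 fell and 3 rose in the triple mutant (median -1.06). All 10 translation factors fell in each genotype, among them EIF4A1 by 1.12 ± 0.05 in cpd. Of 24 biogenesis genes 20 fell in each, with FIB2 down by 1.65 ± 0.09 in cpd. Plastid ribosomal protein genes were mixed in cpd, with 11 of 26 higher and 8 lower. Of the 8 markers of dividing cells 5 rose and 0 fell in each genotype, and in cpd their summed level was 21.8–23.0 CPM at 7 and 48.1–53.4 at 24 days. Leaf marker sums in cpd were 4206–4268 and 5978–6699 CPM, and root marker sums 143–157 and 167–330 CPM. All these marker sums were normalised within each age, so the ages are not on the same scale. TOR, the kinase gene, rose by 0.78 ± 0.06 in cpd. The part of tissue composition in the age change was not tested.

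The use of paralogs differed between groups, given here as shares of a family's summed CPM per kb of coding sequence. RPL10C held 49.2% of the RPL10 sum in cpd with BL at 7 days and 67.1% in the untreated triple mutant at 24 days, a range of 17.9 percentage points. The 67.1% leaned on library 2, with 4883, 7024 and 5543 counts of RPL10C beside 2635, 2351 and 3151 of RPL10A. Untreated cpd at 24 days was much alike, with 6637, 7726 and 5980 counts beside 3271, 3405 and 2927. RPL9C held 46.5% of the RPL9 sum in untreated cpd at 7 days and 28.6% in cpd with BL at 24 days, while RPL9D went from 20.7% to 31.7%. These were the widest ranges among the 24 families. RPL8C (AT4G36130) went from 27.8% of the RPL8 sum in cpd with BL at 7 days to 42.8% in untreated cpd at 24 days.

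Some of these values rest on reads that could be shared. The sources used here state neither how reads that match several paralogs were counted nor whether strand was used. Coding identity within families ran from 68.4% to 99.1% over 40 pairs. RPL9B and RPL9C are 99.1% identical, with an identical stretch of 458 bases, so their separate values are uncertain. It was the sole pair with an identical stretch of 100 bases or more. Of the members 13 overlap another annotated gene. For RPL24A the overlap is 23 of 1746 bases with AT2G36610, which was at 0.183 CPM in untreated cpd at 7 days. For RPL3B it is 16 bases, with a partner at 0 CPM there, and for RPSaA 124 of 2087 bases, with a partner (AT1G72360) at 5.96 CPM in that group and 34.9 in untreated cpd at 24 days. For RPSaB it is 132 bases on the same strand, with a partner (AT3G04780) at 46.2 CPM in untreated cpd at 7 days, above RPSaB itself, so the value of RPSaB is uncertain.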

How the data were processed

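The authors deposited raw read counts per locus for the 24 libraries in a single table, of which 0 library columns were left out. Per the submitters' processing notes, the tools were HTSeq 0.9.1, HISAT2 2.1.0 and Trimmomatic 0.36, with TAIR10 as the build. Settings and strand use were not stated. Groups came from the labels. Each age was fitted on its own 12 libraries, and contrasts of age on all 24, in edgeR 4.0.16 (R 4.3.3): TMM factors, filterByExpr with a minimum count of 10, a cell-means model, and the quasi-likelihood test, two-sided, with p-values adjusted by Benjamini-Hochberg across every gene in the fit and a threshold of 0.05. The 7-day and 24-day fits were tested on simulated data. The common biological variation between replicates (BCV) came to 2.01% in the 7-day fit, 15.0% in the 24-day fit and 10.9% in the joint fit. Log2 changes carry an SE computed as their size over the square root of the F statistic. Signs are treated minus untreated, triple mutant minus cpd, and 24 minus 7 days. At 24 days same-numbered libraries deviated together in every pair of the comparisons of 2 groups, with correlations from 0.130 to 0.616, so the fit with a replicate block is given beside those 2-group results where it moves a count. At 7 days these correlations were -0.042 to 0.041. The origin of the pairing is not given in the labels.

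The members, the other lists and the tests were chosen with earlier results of these data known. Named members were, for each comparison, up to 6 with the largest rise and 6 with the largest fall among those past the test without overlap between groups, all members of families split in direction, the 3 highest and 3 lowest per kb, the families with the largest shift in paralog share, and up to 3 genes per list by adjusted p. RPL24B and RPS5A with BL in cpd, RPS5B in the triple mutant, RPL5B, RPS3A, members called only with the block and the 24-day estimates that did not pass were named after their values were seen. Promoter sequences and gene positions come from the RefSeq annotation of TAIR10.1, a later release of the build named. DESeq2 1.42.0, other scaling, no filter, the replicate block, a joint fit and leaving out each library were run as alternatives. Of these, only the block at 24 days has the share of all genes called counted beside the members within an age. The added fit without replicate 3 of every 24-day group has that share too.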

Additional observations from a re-analysis of the deposited data

Results flagged for a closer look

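The BL effect at 7 days differed between the genotypes, by the test of the difference itself, for 29 members that were lower and 2 that were higher in the triple mutant. Among the members named by rule, the differences on the log2 scale were 0.97 for RPL10C, -0.43 for RPL24A, -0.30 for RPL8A, -0.28 for RPL23aB, -0.28 for RPL9B, -0.24 for RPSaA, -0.22 for RPL7B, -0.12 for RPS18A and 0.11 for RPS18C. RPS18A lost its call in 6 and RPS18C in 7 of 12 cases when a library was left out. The BL effect in cpd differed between the ages for RPL3B, by 0.34, with the same limit given in the report.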

How the results depend on the processing

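No named member past the test changed sign under the alternatives run. Estimates near 0 that did not pass did so when a library was left out (RPL10A with BL in cpd, RPL10B and RPS18A by genotype with BL, all at 7 days). So did the medians over the members with BL in the triple mutant at 7 days (-0.01 to 0.00) and for the BL effect by age (-0.01 to 0.03). With TMM factors computed without the 56 members every count stayed within 1.5 times. RLE scaling gave 4 lower with BL in the triple mutant at 7 days and 1 higher for the difference between genotypes at 7 days. DESeq2 gave 2 higher and 1 lower with BL in the triple mutant at 7 days, 15 higher by genotype without BL and 1 higher for the difference between genotypes at that age. At 24 days it gave 5 higher with BL in cpd, 2 lower by genotype without BL, 3 lower by genotype with BL and 1 lower for the difference between genotypes, and 1 lower for the BL effect by age. Without the filter, 1 was higher for the difference between genotypes at 7 days and 0 for the BL effect by age.

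With the replicate block, 4 were lower with BL in the triple mutant at 7 days. At 24 days 8 were higher and 1 lower with BL in cpd, 1 lower by genotype without BL, 7 lower by genotype with BL, 2 lower for the difference between genotypes (RPL24A and RPSaA), and 2 higher for the BL effect by age. The block changed no other count by over 1.5 times. The numbers did not pair the 7-day libraries. In the difference between genotypes at 24 days the lowest correlation was 0.083.

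The joint fit of 24 libraries applies the wider spread of the 24-day libraries at 7 days. At 24 days it takes in the narrower 7-day spread, with a BCV of 10.9% against 15.0% in the 24-day fit. Its higher counts at 24 days are therefore no added evidence for those members. It gave 12 higher and 1 lower with BL in cpd at 7 days, 0 and 0 with BL in the triple mutant, 0 and 0 by genotype without BL, 2 and 4 by genotype with BL, and 1 and 3 for the difference. At 24 days it gave 16 higher with BL in cpd, 1 higher and 13 lower by genotype without BL, 20 lower with BL and 3 lower for the difference. Without replicate 3 at 24 days, 0 were higher with BL in cpd, beside 2.28% of all genes. That setting also gave 2 higher with age in cpd, and 4 higher and 1 lower for the BL effect by age.

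Leaving out each library gave 2 to 4 higher and 1 to 2 lower with BL in the triple mutant at 7 days, 14 to 21 higher and 1 to 2 lower by genotype without BL, and 1 to 2 higher for the difference between genotypes. At 24 days it gave 0 to 3 higher with BL in cpd, 0 to 1 lower by genotype without BL and 1 to 6 lower with BL. For age in cpd 0 to 1 were higher, and for the BL effect by age 0 to 2 were higher and 0 to 1 lower. The cause of these changes was not tested. The 24-day spread of 15.0% limits small changes there, whereas 2.01% at 7 days resolves changes of 0.06 that rest on libraries not stated to be independent plants.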
